A study of Mus musculus with 18 samples.

Results

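Acsl4, Alox12 and Alox15 encode the lipid enzymes of ferroptosis in a pooled CRISPR knockout screen of mouse Ba/F3 cells, a pro-B cell line that grows in IL-3. The members were all rows of the deposited read table with these 3 gene names. They made up 3 of 76 targeted genes and 9 of 252 sgRNAs, with 3 sgRNAs per gene, and 24 sgRNAs were non-targeting controls.

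The study compared sgRNA abundance in tumour cells from the peritoneum of hCD89-transgenic mice given IgA against human HER2 or vehicle (PBS). hCD89 is the human Fc receptor for IgA, through which neutrophils bind IgA-coated cells. The cells were sensBa/F3, either ITPK1-WT or ITPK1-KO, where ITPK1 is an inositol phosphate kinase. The sgRNA cassettes were amplified from the DNA of cells from 8 mice, 4 per arm, giving 1 library per background and mouse, and from each transduced pool before injection, which makes 18 libraries. ITPK1-KO cells were a pool of clones, each background was 1 transduced pool grown for 10 days, and each mouse received 20000000 cells of the mixed pools and was killed after 16 h. ITPK1-WT cells carried the dye CellTrace Violet and ITPK1-KO cells CellTrace Yellow, so dye, transduced pool and genotype cannot be told apart. Only viable cells were sorted and counted, so the values are shares among survivors. Neither the RNA of the 3 enzymes nor the editing at their sites was measured in these libraries.

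Ferroptosis is an iron-dependent form of cell death in which phospholipids that carry polyunsaturated fatty acids are peroxidised faster than glutathione peroxidase GPX4 can repair them. ACSL4, an acyl-CoA synthetase, activates arachidonic and adrenic acid for incorporation into phospholipids, and cells that lack it resist many inducers of ferroptosis. The lipoxygenases ALOX12, known from platelets, and ALOX15, known from macrophages and eosinophils, add oxygen to polyunsaturated fatty acids directly.

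The sgRNA sequences are shown because each value below is the read count of one of them. Each has 20 bases, written 5′ to 3′, and the capitals mark the 12 bases next to the PAM, the seed on which Cas9 pairing depends most.
Acsl4 sg-1: gtccagggATACGTTCACAC
Acsl4 sg-2: gcccatatCCCTGACCAATG
Acsl4 sg-3: caatagagCAGAGTACCCTG
Alox12 sg-1: tgggtagcAGCTTCCCACCG
Alox12 sg-2: tgtaacggATGTGTGGAACG
Alox12 sg-3: tagggaaaATGGTTACCAGT
Alox15 sg-1: ggatggcaCAATCCTGAACG
Alox15 sg-2: gggcgtgaAAATCGGCGGTG
Alox15 sg-3: tcaccgagTTCCGACAGGGT
None of the 9 shares its capitals with another sgRNA of the library. GC content ran from 50% to 55% for Acsl4, from 40% to 65% for Alox12 and from 55% to 65% for Alox15, against a library median of 50%. In the mouse annotation Acsl4 lies on chromosome X and both lipoxygenases on chromosome 11, with 4 annotated genes between them, of which Alox12e is the only protein-coding one. Of 39 other ferroptosis genes looked for, Gpx4 and Slc7a11 among them, 0 were targeted, so the 3 members are all that the library holds of that list.

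Read totals ran from 317564 to 808586 per library. Each vehicle library came from 2000000 sorted cells. The IgA libraries of mice 5, 6, 7 and 8 came from 1200000, 2000000, 1000000 and 657000 ITPK1-WT cells and from 1670000, 2000000, 1500000 and 955000 ITPK1-KO cells. The biological coefficient of variation (spread beyond counting) came to 3.17% among ITPK1-WT libraries and 2.83% among ITPK1-KO libraries. Read-file numbers in the labels form 2 series, 1 with mice 1 to 5 and the other with mice 6 to 8 and both libraries from before injection.

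Acsl4 sgRNAs were scarce from the outset. Summed over 3 sgRNAs, Acsl4 ranked 4 to 6 from the lowest of 76 genes across the 18 libraries, Alox12 22 to 33 and Alox15 46 to 64. Before injection a mean Acsl4 sgRNA stood at 27.9% of the median non-targeting sgRNA among ITPK1-WT cells and at 29.5% among ITPK1-KO cells. For Alox12 these levels were 59.9% and 64.8%, and for Alox15 77.2% and 86.1%. The library as cloned, before the 10 days of culture, was not analysed here, so how far these levels arose in culture was not tested. Each Acsl4 sgRNA was counted 415 to 1087 times per library, which gives a counting error of 3.03% to 4.91%. The errors were 1.76% to 3.29% for Alox12 sgRNAs and 1.57% to 2.92% for Alox15 sgRNAs. Such errors cover counting only, since reads carry no molecular identifiers.

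Abundance below is given as CPM, the reads of an sgRNA over the library's total with TMM scaling, summed over the 3 sgRNAs of a gene. In ITPK1-WT cells Acsl4 stood at 4882 before injection, at 3508, 3575, 3692 and 3563 in vehicle mice 1 to 4, and at 3347, 3428, 3103 and 3012 in IgA mice 5 to 8. In ITPK1-KO cells it stood at 4841 before injection, at 4138, 4080, 4357 and 4015 in vehicle mice, and at 3895, 4352, 4184 and 3962 in IgA mice. All 16 recovered libraries lay below the starting library of their background, and every recovered ITPK1-KO library lay above every recovered ITPK1-WT one. The vehicle and IgA libraries overlapped in ITPK1-KO cells, and in ITPK1-WT cells all IgA libraries lay below all vehicle libraries. Here and below, overlap was looked at for the members only, so how common such separation is in the library was not tested.

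**Figure D1:**
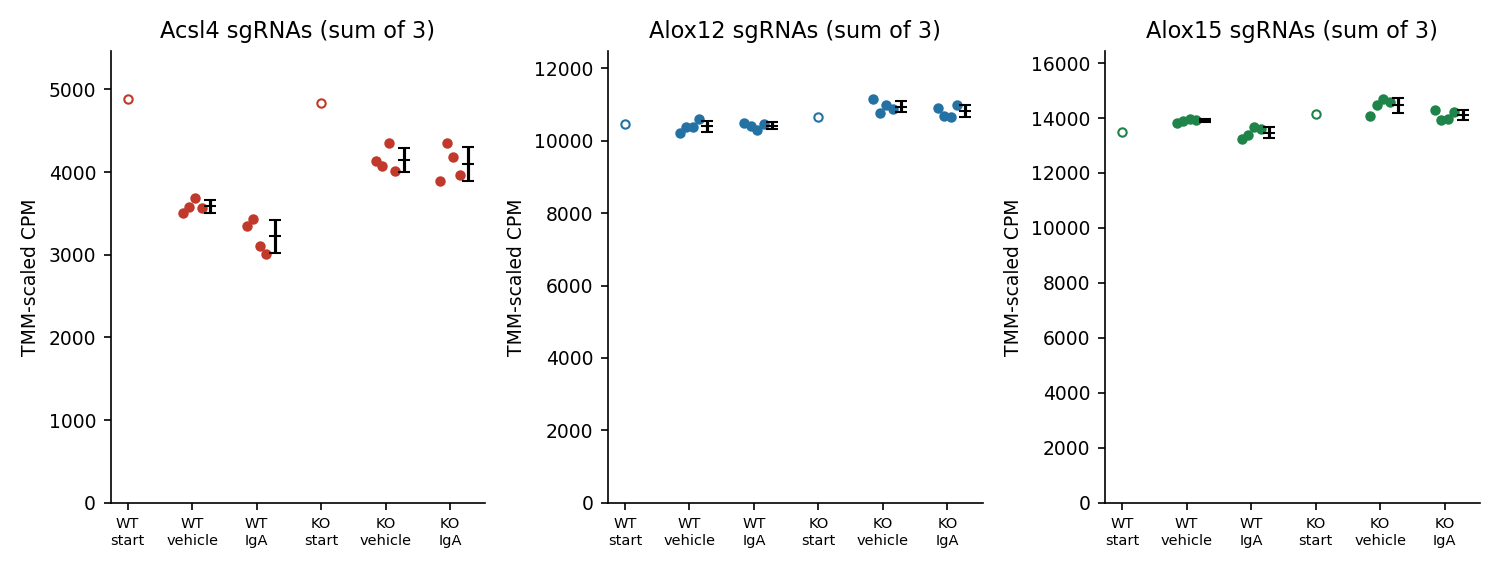
TMM-scaled CPM summed over the 3 sgRNAs of each gene (vertical axes, from 0) in each library by background and arm. Filled points are mice, open points the single library from before injection, and black bars the mean ± SD of 4 mice. Acsl4 lies below its starting level in all groups from mice (3222 in ITPK1-WT IgA against 4882 before injection), while Alox12 and Alox15 stay close to theirs.

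For the change from before injection, the log2 ratio of sgRNA shares was set so that the median non-targeting sgRNA is 0 and averaged over the sgRNAs of a gene. With 1 starting library per background it is a description with no test, and SDs cover mice only. Acsl4 in ITPK1-WT cells stood at −0.44, −0.43, −0.39 and −0.45 in vehicle mice 1 to 4, a mean of −0.43 ± 0.024 (SD, n = 4), or 25.6% below the start. In IgA mice 5 to 8 it stood at −0.50, −0.45, −0.57 and −0.60, a mean of −0.53 ± 0.066 (SD, n = 4), or 30.9% below. These means were the second lowest of 76 genes in vehicle mice and the lowest in IgA mice.

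In ITPK1-KO cells the change of Acsl4 was smaller. Its values were −0.24, −0.25, −0.15 and −0.31 in vehicle mice, a mean of −0.24 ± 0.067 (SD, n = 4), or 15.1% below the start. In IgA mice they were −0.33, −0.16, −0.21 and −0.29, a mean of −0.25 ± 0.077 (SD, n = 4), or 15.7% below. Acsl4 ranked 3 and 4 from the lowest of 76 genes there. Both backgrounds thus had values below 0 in every mouse, and the ranges of the backgrounds did not overlap in either arm.

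The 3 Acsl4 sgRNAs shared this sign. Of 48 values (3 sgRNAs in 16 libraries), 48 lay below 0. Within a background all values of an sgRNA share 1 starting count, so the 48 are not independent. How many other sgRNAs lay below 0 in every library was not counted. In ITPK1-WT cells sg-1, sg-2 and sg-3 averaged −0.38, −0.57 and −0.34 in vehicle mice and −0.58, −0.63 and −0.40 in IgA mice. In ITPK1-KO cells they averaged −0.33, −0.27 and −0.11 in vehicle mice and −0.34, −0.24 and −0.15 in IgA mice, so that sg-3 was closest to the start in every group. The 24 non-targeting sgRNAs, averaged over mice, ran from −0.11 to 0.096 in ITPK1-WT vehicle mice and from −0.26 to 0.25 in ITPK1-WT IgA mice. In ITPK1-KO cells they ran from −0.085 to 0.11 and from −0.13 to 0.10.

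Low abundance at the start is shared with other sgRNAs. The ITPK1-WT starting library held 14 other sgRNAs with 100 to 933 reads. Of these, 0 stood as low as the highest Acsl4 sgRNA in either arm, and their medians were −0.082 in vehicle and 0.13 in IgA mice. The lowest of the 14 came close, at −0.332 and −0.367 against −0.335 and −0.395 for the highest Acsl4 sgRNA, sg-3. The counting error of sg-3 in that starting library was 0.049 on this scale. The ITPK1-KO starting library held 18 other sgRNAs with 100 to 949 reads. Of these, 6 stood at or below the highest Acsl4 sgRNA in vehicle mice and 5 in IgA mice. The medians of the 18 were −0.053 and −0.068. All vehicle libraries lie in the other read-file series from the starting libraries, so time in the mouse and series cannot be told apart for them. Among IgA mice, those in the series of the starting libraries averaged −0.54 for Acsl4 among ITPK1-WT cells and −0.22 among ITPK1-KO cells, and mouse 5, in the other series, stood at −0.50 and −0.33.

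The lipoxygenases stayed near their starting levels. Alox12 averaged 0.0060 ± 0.010 in vehicle and 0.052 ± 0.019 in IgA mice in ITPK1-WT cells, and 0.020 ± 0.028 and 0.0050 ± 0.018 in ITPK1-KO cells (SD, n = 4 each). Alox15 averaged 0.055 ± 0.013 in vehicle and 0.071 ± 0.050 in IgA mice in ITPK1-WT cells, and 0.015 ± 0.030 and −0.0071 ± 0.018 in ITPK1-KO cells (SD, n = 4 each). Over all 76 genes the median size of the change, whatever its sign, was 0.037, 0.092, 0.035 and 0.037 in the same order of groups. Of 48 values each, 25 lay below 0 for Alox12 and 18 for Alox15. The sgRNA of either gene farthest from 0 was Alox12 sg-3 in ITPK1-WT IgA mice, at 0.23, inside the range of the non-targeting sgRNAs there. In ITPK1-WT vehicle mice Alox15 sg-2 averaged 0.12, above the highest non-targeting sgRNA of that group, at 0.096.

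**Figure D2:**
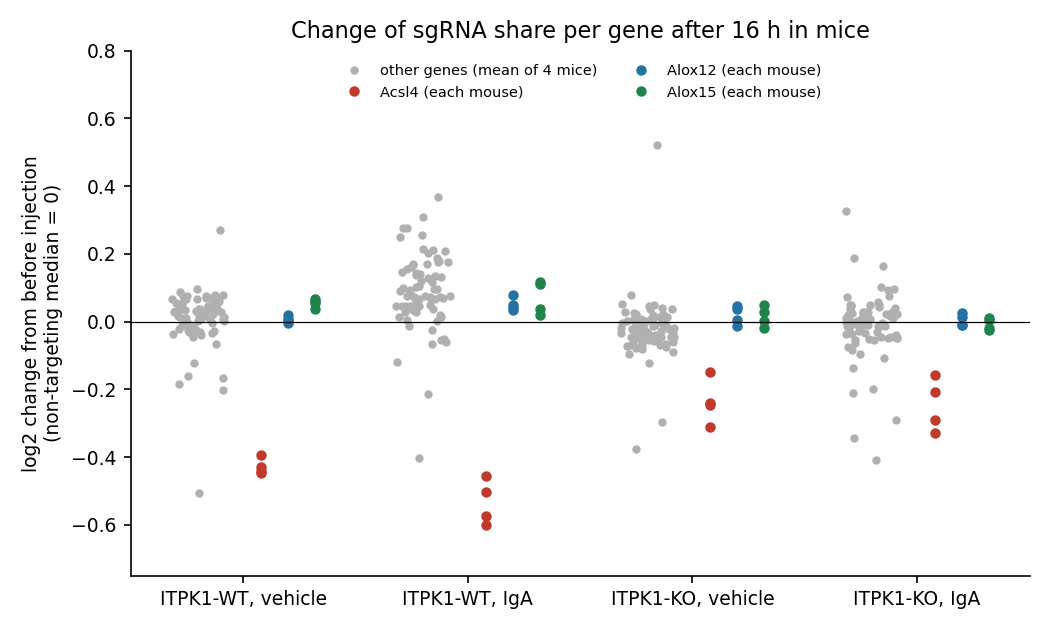
Change from before injection (log2, median non-targeting sgRNA at 0, vertical axis) by background and arm. Coloured points are Acsl4, Alox12 and Alox15 in each of 4 mice and grey points the mean over mice of each other gene, and Acsl4 means run from −0.53 to −0.24 while both lipoxygenases lie around 0.

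The difference between backgrounds within a mouse asks how loss of ITPK1 goes with the abundance of each knockout. Acsl4 sgRNAs were at a higher level among the ITPK1-KO cells than among the ITPK1-WT cells in all 8 mice. It was taken as ITPK1-KO minus ITPK1-WT (log2), less the median of the same differences of the non-targeting sgRNAs. Before injection this difference was −0.018 for Acsl4 (95% counting interval −0.097 to 0.060). Against the level of the median non-targeting sgRNA the order was the other way, 29.5% in ITPK1-KO and 27.9% in ITPK1-WT cells. The sign at the start thus depends on how the reference is taken. In vehicle mice 1 to 4 it was 0.25, 0.17, 0.25 and 0.12, a mean of 0.20 ± 0.062 (SD, n = 4), and in IgA mice 5 to 8 it was 0.19, 0.31, 0.40 and 0.35, a mean of 0.32 ± 0.088 (SD, n = 4). The interval at the start covers counting error only, while libraries of 1 group varied by 2.24 to 5.62 times the counting variance.

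The same contrast was tested on counts with edgeR's quasi-likelihood test, adjusted over all genes or all sgRNAs of the library. In vehicle mice summed Acsl4 counts were higher in ITPK1-KO cells by a log2 fold change of 0.20 (SE 0.049, 95% interval 0.11 to 0.30, adjusted p = 0.000493). In IgA mice the edgeR value was 0.35 (SE 0.048, 95% interval 0.25 to 0.44, adjusted p = 6.04e-08). Calls between backgrounds, in either direction, were common in the library. In vehicle mice 47.4% of genes and 31.7% of sgRNAs passed, and in IgA mice 44.7% of genes and 34.9% of sgRNAs. Called as higher in ITPK1-KO cells were 22.4% of genes in vehicle and 19.7% in IgA mice. The backgrounds are separate transduced pools, so a difference already there at the start enters the test.

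At the level of single sgRNAs, 3 of 9 members passed in vehicle mice (edgeR), all higher in ITPK1-KO cells. Of all sgRNAs 31.7% passed in either direction and 13.9% passed as higher in ITPK1-KO cells. The 3 members were Acsl4 sg-1 (0.22, adjusted p = 0.00519), Acsl4 sg-2 (0.24, adjusted p = 0.00383) and Alox12 sg-2 (0.12, adjusted p = 0.0151). Acsl4 sg-3 did not pass (0.15, adjusted p = 0.109 by edgeR), and its libraries of the backgrounds overlapped, whereas those of sg-1 and sg-2 did not. With the mouse as a block, Acsl4 sg-3 passed as well (0.15, adjusted p = 0.0498 by edgeR), making 4 of 9. Of all sgRNAs 34.1% then passed in either direction. Leaving out 1 vehicle mouse ended the calls of Acsl4 sg-1 (without mouse 3), Acsl4 sg-2 (without mouse 2) and Alox12 sg-2 (without mouse 1 or mouse 2).

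In IgA mice 5 of 9 members passed, all higher in ITPK1-KO cells. Of all sgRNAs 34.9% passed there in either direction and 16.7% as higher in ITPK1-KO cells. Acsl4 sg-1 stood at 1061, 1192, 1060 and 927 CPM in the ITPK1-WT cells of mice 5 to 8 and at 1450, 1563, 1448 and 1357 in their ITPK1-KO cells, and the backgrounds did not overlap (0.45, adjusted p = 9.73e-09 by edgeR). Acsl4 sg-2 stood at 1012, 1052, 884 and 1169 CPM against 1251, 1373, 1427 and 1299, again without overlap (0.38, adjusted p = 2.80e-06 by edgeR). Acsl4 sg-3 stood at 1273, 1184, 1159 and 916 CPM against 1193, 1416, 1309 and 1306, with overlap (0.20, adjusted p = 0.0180 by edgeR). The 3 sgRNAs had the same order before injection, where ITPK1-KO minus ITPK1-WT was 0.14, −0.082 and −0.12 for sg-1, sg-2 and sg-3. Scaled to the non-targeting sgRNAs, 2 of 9 passed in IgA mice, Acsl4 sg-1 and sg-2, and Acsl4 sg-3 stood at 0.16 (adjusted p = 0.0600). The call of Acsl4 sg-3 was also lost without mouse 6, 7 or 8 (0.12 without mouse 8, adjusted p = 0.231 by edgeR), and 3 of 9 passed without mouse 5, 7 or 8.

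For the lipoxygenases the difference between backgrounds was smaller. Alox12 counts were 10225, 10388, 10376 and 10611 CPM in ITPK1-WT cells from vehicle mice and 11150, 10766, 10978 and 10891 in their ITPK1-KO cells, without overlap (log2 fold change 0.071, SE 0.021, adjusted p = 0.00391 by edgeR). In IgA mice they were 10501, 10402, 10295 and 10472 against 10903, 10674, 10669 and 10998, also without overlap (0.054, SE 0.020, adjusted p = 0.0245 by edgeR). Scaled to the non-targeting sgRNAs, the IgA value was 0.013 (adjusted p = 0.671), and without any 1 of the IgA mice it also missed the threshold. Alox12 sg-2 alone of the 3 passed in IgA mice (0.14, adjusted p = 0.00228 by edgeR), a call lost without mouse 5 (adjusted p = 0.0595) and when scaled to the non-targeting sgRNAs (0.10, adjusted p = 0.0515).

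Alox15 counts were 13825, 13889, 13972 and 13932 CPM in ITPK1-WT cells from vehicle mice and 14089, 14480, 14685 and 14568 in their ITPK1-KO cells (0.053, SE 0.017, adjusted p = 0.00891 by edgeR). In IgA mice they were 13236, 13383, 13660 and 13583 against 14303, 13921, 13964 and 14235 (0.067, SE 0.017, adjusted p = 0.00102 by edgeR). The backgrounds overlapped in neither arm, though how many other genes separate likewise was not tested. Scaled to the non-targeting sgRNAs, these values were 0.044 and 0.026 (adjusted p = 0.0727 and 0.276), and the vehicle call was also lost without mouse 2. Before injection the difference, less the median difference of the non-targeting sgRNAs, was 0.060 for Alox15 (95% counting interval 0.013 to 0.106). For Alox12 it was 0.019 (−0.034 to 0.072). On that measure Alox15 averaged 0.043 ± 0.020 in vehicle and 0.028 ± 0.044 in IgA mice (SD, n = 4 each), no larger than at the start. Alox12 averaged 0.056 ± 0.063 and 0.019 ± 0.015. Alox15 sg-3 was its sgRNA past the threshold in IgA mice (0.085, adjusted p = 0.0231 by edgeR). That call was lost without mouse 5, 7 or 8 (adjusted p = 0.0517 to 0.190) and when scaled to the non-targeting sgRNAs (0.044, adjusted p = 0.315).

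**Figure D3:**
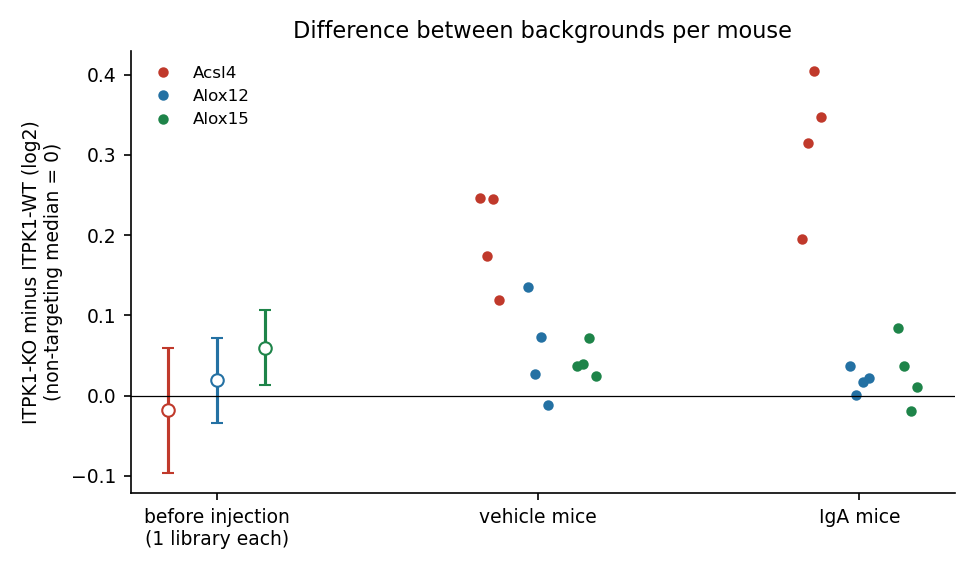
Log2 difference between ITPK1-KO and ITPK1-WT cells (vertical axis, median difference of the non-targeting sgRNAs at 0) before injection and in each mouse. Open points are the single pair of starting libraries with 95% counting intervals and filled points are mice, and Acsl4 goes from −0.018 before injection to means of 0.20 in vehicle and 0.32 in IgA mice.

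The screen asked which knockouts change under IgA. In ITPK1-WT cells Acsl4 sgRNAs were less abundant in IgA than in vehicle mice, by a log2 fold change of −0.16 (SE 0.055, 95% interval −0.27 to −0.043, adjusted p = 0.0280 by edgeR), where 36.8% of genes passed. This call was lost without any 1 mouse other than mouse 6 (−0.17 to −0.13, adjusted p = 0.0508 to 0.101 by edgeR), and scaled to the non-targeting sgRNAs the value was −0.11 (adjusted p = 0.114). All vehicle mice and IgA mouse 5 lie in 1 read-file series and IgA mice 6 to 8 in the other. With the series as a covariate, where the comparison rests on mouse 5, the value was −0.11 (adjusted p = 0.462 by edgeR), and 10 of 76 genes passed in place of 28. Non-targeting sgRNAs themselves had a median of −0.059 in this comparison, and 9 of 24 passed, 8 of them lower. Their share of reads was 13.5% in vehicle and 13.1% in IgA mice. The IgA libraries of ITPK1-WT cells also came from fewer sorted cells in 3 of 4 mice, and the part of cell number in the result was not tested.

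Of the 9 member sgRNAs 2 passed in ITPK1-WT cells, both lower in IgA mice. Of all sgRNAs 27.8% passed in either direction and 13.9% as lower. Acsl4 sg-1 stood at 1267, 1277, 1209 and 1268 CPM in vehicle mice and at 1061, 1192, 1060 and 927 in IgA mice, without overlap (−0.24, SE 0.076, adjusted p = 0.0138 by edgeR). This call was lost without mouse 1 (−0.23, adjusted p = 0.0503) or mouse 8 (−0.19, adjusted p = 0.0817) and with the series as a covariate (−0.26, adjusted p = 0.258). Alox15 sg-3 stood at 5090, 5231, 5258 and 5443 CPM in vehicle mice and at 4713, 4886, 4985 and 4748 in IgA mice, without overlap (−0.13, SE 0.031, adjusted p = 0.00144 by edgeR). As a percentage of the median non-targeting sgRNA its arms did overlap, at 88.4% in vehicle mouse 1 and 89.3% in IgA mouse 7. Alox15 sg-3 passed without any 1 mouse and with the series as a covariate too, but not when scaled to the non-targeting sgRNAs (−0.074, adjusted p = 0.0668). Acsl4 sg-2 and sg-3 had values of −0.12 and −0.11 (adjusted p = 0.293 and 0.354 by edgeR), and their arms overlapped.

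The sgRNAs of the lipoxygenases pointed in both directions under IgA in ITPK1-WT cells. Alox12 sg-1, sg-2 and sg-3 had log2 fold changes of −0.044, −0.078 and 0.082 (adjusted p = 0.514, 0.174 and 0.0974 by edgeR), and their sum −0.0047 (SE 0.021, adjusted p = 0.859), a value that turns positive under 3 other scalings. Alox15 sg-1 and sg-2 had values of 0.052 and −0.054 (adjusted p = 0.368 and 0.174 by edgeR). Summed Alox15 counts were lower by −0.053 (SE 0.017, adjusted p = 0.0158 by edgeR), where 36.8% of genes passed. Scaled to the non-targeting sgRNAs, the Alox15 value was −0.00087 (adjusted p = 0.981 by edgeR). The call was also lost without mouse 5 or mouse 6 (adjusted p = 0.0517 and 0.0516 by edgeR) and with limma on mean log2 CPM (adjusted p = 0.0937). The median of the 9 members was −0.078, that of the 24 non-targeting sgRNAs −0.059 and that of all 252 sgRNAs −0.00099.

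In ITPK1-KO cells 0 of 9 member sgRNAs passed between IgA and vehicle mice, against 10.4% of 251 tested by edgeR, and 0 of the 3 genes, against 13.2%. At an unadjusted p under 0.05 there was 1, Alox15 sg-3 (−0.065, adjusted p = 0.199 by edgeR). The value of Acsl4 was −0.0071 (SE 0.043, 95% interval −0.097 to 0.083, adjusted p = 0.909 by edgeR), and those of Alox12 and Alox15 were −0.016 and −0.033 (adjusted p = 0.625 and 0.202). DESeq2's Wald test also called 0 of the 9.

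Whether the IgA effect differed between backgrounds was tested in 1 fit of all 16 recovered libraries. None of the 9 sgRNAs passed (edgeR, against 3.97% of all sgRNAs), and 1 had an unadjusted p under 0.05, which was Acsl4 sg-1 (0.23, adjusted p = 0.244 by edgeR). DESeq2's Wald test called 0 of the 9 as well. For genes 6.58% passed and no member did. The difference for Acsl4, ITPK1-KO minus ITPK1-WT, was 0.14 (SE 0.069, 95% interval 0.0027 to 0.28, adjusted p = 0.371 by edgeR), and those of Alox12 and Alox15 were −0.017 and 0.014 (adjusted p = 0.773 each). The Acsl4 deficit under IgA is therefore not shown to differ between backgrounds, although it passed in ITPK1-WT and not in ITPK1-KO cells.

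**Figure D4:**
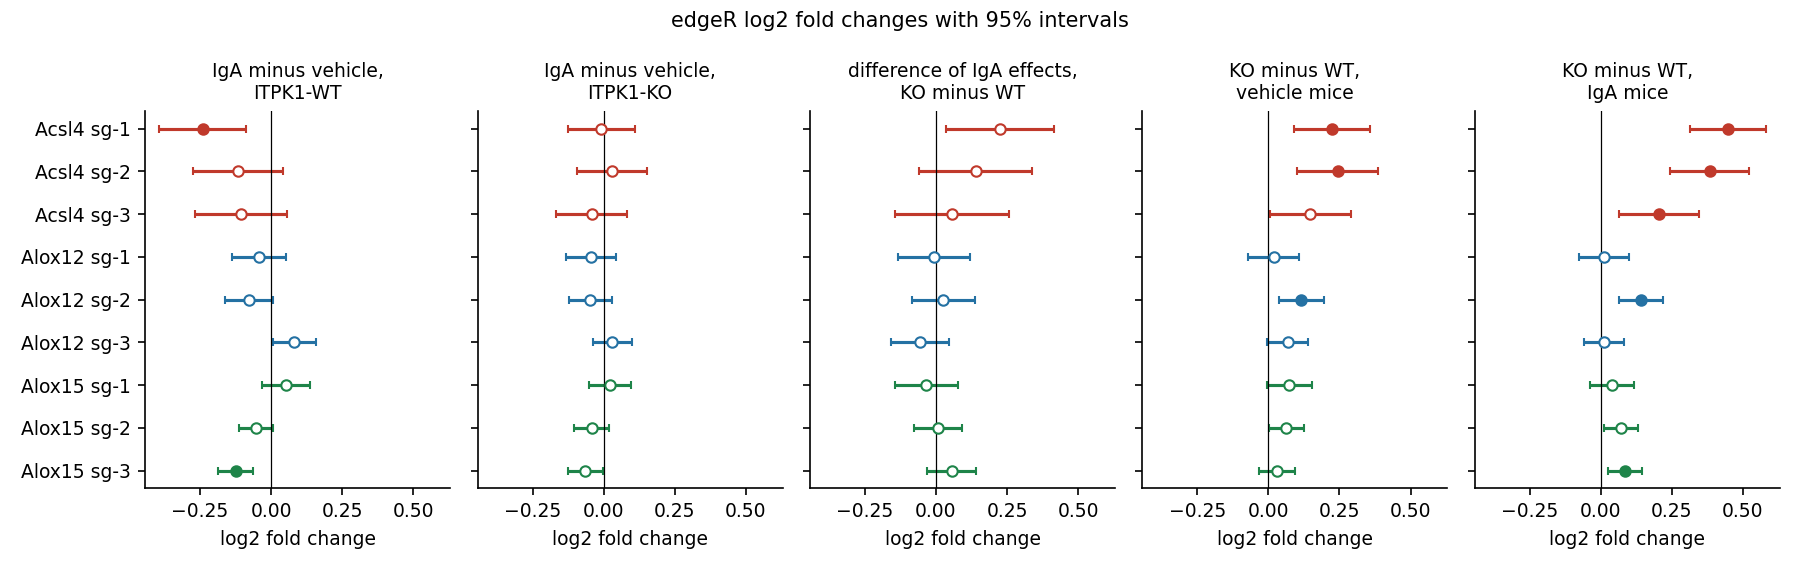
Log2 fold changes (horizontal axes) of the 9 sgRNAs with 95% intervals from edgeR in the 5 comparisons, filled where the adjusted p is under 0.05. Filled points are Acsl4 sg-1 and Alox15 sg-3 for IgA in ITPK1-WT cells, none for IgA in ITPK1-KO cells or for the difference, and 3 and 5 between backgrounds in vehicle and IgA mice, with Acsl4 sg-1 at 0.45 the farthest from 0.

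The authors' deposited table, from MAGeCK, gave other sizes for the IgA comparison in ITPK1-WT cells, and the other sign for Acsl4 sg-3 and Alox12 sg-1. In the authors' deposited table Acsl4 sg-1, sg-2 and sg-3 had log2 fold changes of −0.20, −0.072 and 0.012, Alox12 0.022, −0.0057 and 0.17, and Alox15 0.11, −0.0096 and −0.063. In the authors' deposited table the FDR of all 9 was 0.998, and 0 of 252 sgRNAs had an FDR under 0.05, where edgeR called 70. For ITPK1-KO cells the members ran from −0.045 to 0.058 in the authors' deposited table, with FDRs from 0.974, and 12 of 252 sgRNAs had an FDR under 0.05. Acsl4 sg-1 was the lowest of the 9 in ITPK1-WT cells by either source.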

How the data were processed

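Libraries of sgRNA cassettes from genomic DNA were analysed: 16 from 8 mice and 2 from before injection. The authors deposited raw read counts for each sgRNA. The series' design text says that reads were aligned to a library reference, that those with mismatches were dropped, and that MAGeCK RRA 0.5.6 scored the counts. Which aligner did this is not given in the sources used here. Per sgRNA, the deposited MAGeCK tables of the authors hold the log2 fold change, p-value and FDR. Their 4 columns of joined per-sample values were not used. The arm of each mouse and the cells sorted (other units, per the file headers) were read from the deposited sample legend. Gene names are those of the files, and chromosomes and neighbours come from RefSeq's GRCm38.p6 annotation. The files name no build, so no coordinates are given. Nothing states that the mice or pools were replicated beyond this, so p-values measure the spread between mice that received the same pools.

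edgeR 4.0.16 and limma 3.58.1 were run in R 4.3.3. A filter kept sgRNAs whose mean count was 10 or more, which all 9 members passed. After TMM scaling, edgeR's quasi-likelihood test was applied over the whole library and adjusted by Benjamini-Hochberg (threshold 0.05). IgA was tested within each background, and the other contrasts in 1 fit of 16 libraries. Gene tests used counts summed over sgRNAs. Change from before injection used 0.5 added reads. All 3 members and their 9 sgRNAs were to be named with values, with the 2 most alike genes for each. Of the genes this rule names, 1 is not reported here. Members and lists were chosen with earlier results of these data known. The procedure was tested on simulated data.

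Both libraries of a mouse come from the same animal, so mouse numbers pair them. For the 238 sgRNAs with mean counts of 500 or more, the correlation of their deviations from group means ran from −0.0841 to 0.259. Alternatives were other scalings (DESeq2 1.42.0 size factors, totals, non-targeting sgRNAs), count filters, DESeq2's Wald test, robust dispersion, limma on mean log2 CPM, 1 joint fit, mice as blocks, the read-file series as a covariate, each mouse left out, 5 added reads and no subtraction of the non-targeting median. DESeq2's size factors at the gene level were added after seeing the data.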

Additional observations from a re-analysis of the deposited data

Results flagged for a closer look

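In 3 of 48 groups of 4 libraries, 1 mouse stood apart from the rest by Dixon's test, which chance does in about 1 in 20 groups. Acsl4 sg-1 was lowest in ITPK1-WT cells of vehicle mouse 3, at 1209 CPM, where the nearest other library stood at 1267 and the farthest at 1277 (gap over range 0.854). Alox12 sg-2 was highest in ITPK1-KO cells of IgA mouse 5, at 3769 CPM against 3618 and 3601 (0.899). Alox15 sg-1 was highest in ITPK1-KO cells of vehicle mouse 4, at 3761 CPM against 3695 and 3682 (0.833).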

How the results depend on the processing

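The higher Acsl4 counts in ITPK1-KO cells passed under every alternative run at the gene level, at 0.19 to 0.22 in vehicle and 0.31 to 0.38 in IgA mice. With the mouse as a replicate block, the calls of the 3 genes did not change, the Acsl4 difference of IgA effects was 0.14 (adjusted p = 0.197), and 4 member sgRNAs in place of 3 passed between backgrounds in vehicle mice. Scaled to the non-targeting sgRNAs, the IgA values in ITPK1-WT cells were −0.11 for Acsl4, 0.047 for Alox12 and −0.00087 for Alox15, and in ITPK1-KO cells 0.0071 for Acsl4. That scaling gave −0.018 for the Alox15 difference of IgA effects. Between backgrounds it gave 0.044 for Alox15 in vehicle mice and, in IgA mice, 0.013 for Alox12, 0.026 for Alox15 and 2 called sgRNAs in place of 5. With the read-file series as a covariate, IgA values in ITPK1-WT cells were −0.11 for Acsl4 (adjusted p = 0.462) and 0.00035 for Alox12, 1 member sgRNA passed and 17 sgRNAs and 10 genes of the whole library passed in place of 70 and 28. In ITPK1-KO cells 15 sgRNAs and 5 genes then passed in place of 26 and 10. Without mouse 7, 45 sgRNAs and 17 genes of the library passed for IgA in ITPK1-WT cells, and without mouse 6, 17 sgRNAs in place of 10 passed for the difference. For IgA in ITPK1-WT cells, Alox12 stood at 0.0023 with DESeq2's size factors and 0.0027 with total counts, and Alox15 at −0.043 with limma on mean log2 values. With each mouse left out in turn, IgA values in ITPK1-WT cells ran from −0.19 to −0.13 for Acsl4, −0.0086 to 0.0057 for Alox12 and −0.062 to −0.043 for Alox15, with 1 to 3 called sgRNAs. Acsl4 passed in 1 of these 8 fits and Alox15 in 6. In ITPK1-KO cells Acsl4 ran from −0.038 to 0.017, and the Alox15 difference of IgA effects from −0.0024 to 0.024. Between backgrounds, 1 to 3 sgRNAs passed in vehicle mice, with Alox15 at 0.049 to 0.065, and 3 to 5 in IgA mice, with Alox12 at 0.048 to 0.056. Without subtraction of the non-targeting median, the change from the start in ITPK1-WT cells was −0.60 for Acsl4, −0.019 for Alox12 and 0.00038 for Alox15 in IgA mice, and −0.013 for Alox12 and 0.036 for Alox15 in vehicle mice. The cause of these shifts was not tested. Acsl4 sgRNAs were the most shallowly counted of the members, and intervals of about ±0.1 at the gene level limit what can be seen.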

Other observations

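Over the 16 recovered libraries, after subtraction of the mean of each background, the mean log2 CPM of Acsl4 was most like that of CASP2 (Pearson r = 0.778) and CASP6 (r = 0.751), both caspases. It was less like Alox12 (r = 0.134) and Alox15 (r = 0.124), and the median over the 73 other genes was −0.135. Among the genes most like Alox12 was Zbp1 (r = 0.541), a sensor of Z-form nucleic acids, and the r of Alox12 with Alox15 was 0.179. Alox15 was most like Bid (r = 0.718), a proapoptotic BCL-2 family member, and Fadd (r = 0.716), an adaptor of death receptors. These are descriptions over libraries that share arms, mice and read-file series.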
